A study of Mus musculus with 4 samples.

Results

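Gdf15 was followed as a single gene, 1 of 31053 in the annotation, across the stromal vascular cells of mouse subcutaneous fat, which are the cells left once fat is digested and the mature adipocytes float away. Female mice carried intact Cth (Cth+/+) or lacked it (Cth-/-), and were fed a control diet or a diet free of cystine for 4 days. Cth encodes cystathionine gamma-lyase, which releases cysteine in the last step of transsulfuration. The subcutaneous depots were freed of lymph nodes and pooled before digestion, and each of the 4 groups had 1 library of droplet-based 3′ single-cell RNA sequencing (10x Genomics). The number of animals in a pool, their age and strain, and the extent of the Cth deletion are not given in the sources used here. With 1 library per group no difference was tested. Every interval is a 95% interval of counting error alone. An effect of genotype or of diet cannot be told apart from a difference between single libraries.

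GDF15 is a divergent secreted member of the TGF-beta superfamily that is made in many cell types under stress. Transcription factors of the integrated stress response (ATF4 and CHOP, the product of Ddit3) and p53 are known to raise its transcription. Its receptor is GFRAL, which signals with RET in neurons of the hindbrain and lowers food intake and body weight. In adipose tissue, macrophages are among the known sources.

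Barcodes were placed in gates by the UMIs (unique molecular identifiers, each standing for 1 captured RNA molecule) of a few lineage genes. The progenitor gate took barcodes with at least 0.2% of their UMIs from Dcn, and the endothelial gate at least 3 UMIs of Cdh5, Pecam1 and Cldn5 together. The phagocyte gate took at least 4 UMIs of Csf1r, Cd68 and Lyz2 and was split at 2 UMIs of Mrc1 and Folr2, genes of resident macrophages. The T gate took at least 2 UMIs of Cd3d, Cd3e and Cd3g, a gate on Rgs5 and Notch3 at least 4, and the epithelial gate at least 5 of Krt8 and Krt18. Gdf15 was chosen by its own UMI counts across these gates and libraries, so its levels below are a description and carry no test. Where 4 values follow one another without names, they run from the control to the cystine-free diet in Cth+/+ and then likewise in Cth-/-.

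The libraries held 4394 to 7312 barcodes and 15948807 to 30944977 UMIs, with medians of 2535 to 3379 UMIs per barcode. Cth gave 9 and 11 UMIs in the Cth+/+ control and cystine-free libraries and 0 in both Cth-/- libraries, where 3 UMIs would be 0.114 and 0.188 CPM, UMIs per 1000000 UMIs of the library. Between 40 and 69 barcode sequences were shared by any pair of libraries, and none of them was Gdf15-positive in both. The gate on Rgs5 and Notch3 did not follow its mural label: 68.2% to 83.5% of it also passed the endothelial gate. Its summed endothelial markers (1398 to 2933 CPM) stood above its summed mural markers (655 to 1143 CPM) in every library. Its summed epithelial markers were 1515, 293, 3350 and 2528 CPM, above the mural sum in all but the Cth+/+ cystine-free library and above the endothelial sum in both Cth-/- libraries, in 8.20% to 21.8% of its barcodes. It is therefore called by its genes below.

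In the annotation Gdf15 (ENSMUSG00000038508) lies on the minus strand of chromosome 8 at 70629393 to 70632456 (mm10, GENCODE vM21), with no other gene overlapping it. Its 3 exons in transcript Gdf15-202 and 2 exons in Gdf15-201 share the coding sequence, and they start at 70632456 and 70632095. The RefSeq windows of both starts (GRCm38.p6, 250 bases before to 50 after) were searched on both strands for 5 motifs of stress-responsive factors. These were the C/EBP-ATF element TGATGNAAN, the E-box CACGTG, the AP-1 site TGANTCA, the cAMP response element TGACGTCA and the antioxidant response element TGACNNNGC. Over all 32851 windows of this length, 3.95%, 7.15%, 7.81%, 1.79% and 12.4% held them, in that order. One match was found, a CACGTG located 83 bases before the start of Gdf15-201. It falls in the first, untranslated exon of Gdf15-202. It is shown with its surroundings because it was the single match, followed by the bases before the RefSeq gene's 5′ end, which held no match. Both are from RefSeq, 5′ to 3′ on the gene's strand, with the E-box in capitals.
chr8:70632162-70632191, E-box: gcacagggcagggCACGTGtgagcatccag
chr8:70632471-70632706, upstream: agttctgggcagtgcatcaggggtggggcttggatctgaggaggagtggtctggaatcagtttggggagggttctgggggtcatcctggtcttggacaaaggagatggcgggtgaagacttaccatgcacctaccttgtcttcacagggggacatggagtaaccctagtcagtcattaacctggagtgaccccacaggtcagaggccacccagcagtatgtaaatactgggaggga

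Over all barcodes, Gdf15 stood at 12.95 CPM (95% counting interval 11.6 to 14.5) in the Cth+/+ control library and 16.1 CPM (14.7 to 17.6) in the Cth+/+ cystine-free library. It stood at 16.9 CPM (15.3 to 18.5) in the Cth-/- control library and 58.9 CPM (55.2 to 62.8) in the Cth-/- cystine-free library. One library is thus apart from the rest, whose values lie within 1.5-fold of each other. The log2 ratio of the cystine-free to the control diet was 1.80 (1.64 to 1.97) in Cth-/- and 0.31 (0.11 to 0.52) in Cth+/+, a difference of 1.49 (1.23 to 1.75). The log2 ratio of Cth-/- to Cth+/+ was 1.87 (1.71 to 2.03) on the cystine-free diet and 0.38 (0.17 to 0.59) on the control diet. Among the 8983 genes with at least 10 CPM in either Cth-/- library, the diet ratio of Gdf15 was the 158th highest, with 1 CPM added to both levels.

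The UMIs came from few barcodes. Over the 4 libraries, 316, 498, 443 and 939 Gdf15 UMIs were found in 190, 230, 211 and 311 barcodes, which is 2.65%, 3.15%, 3.32% and 7.08% of each library. The gates differed in their part of the tissue between libraries, so the change over all barcodes was split into shares and levels. For this split each barcode was counted once, in the first gate it passed. The order was phagocyte, T, epithelial, Rgs5 and Notch3, endothelial and progenitor, then no gate. With the Cth-/- control levels kept and only the shares of UMIs per gate taken from the Cth-/- cystine-free library, the log2 diet ratio was 0.30. With the shares kept and only the levels taken, it was 1.63. The level of a gate also depends on the make-up of its barcodes, whose part was not tested.

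**Figure D1:**
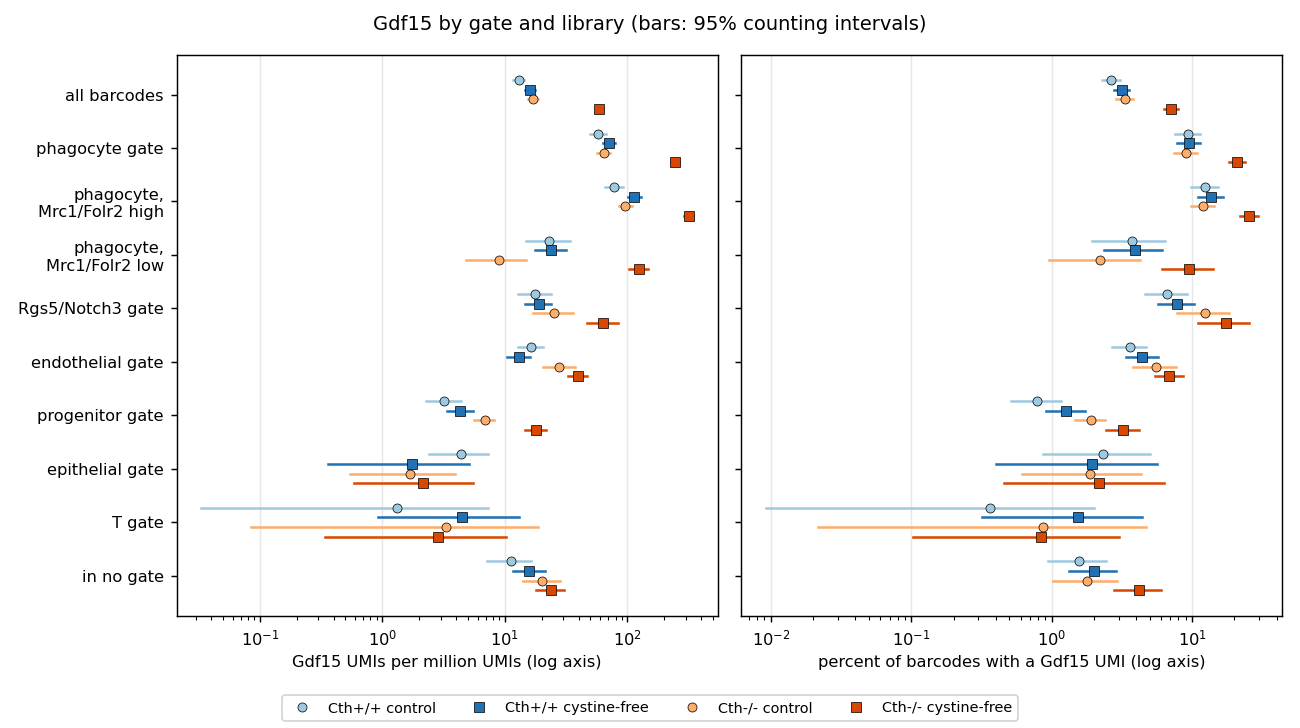
Gdf15 in CPM (left, log axis) and the percent of barcodes with at least 1 Gdf15 UMI (right, log axis), by gate and library, with 95% counting intervals. The Cth-/- cystine-free library is highest in the phagocyte gate (245 CPM) and its Mrc1/Folr2-high part (316 CPM), and the T and epithelial gates lie below 5 CPM in every library.

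Phagocytes carried most of the transcript. Their gate held 53.8%, 60.4%, 61.9% and 73.5% of all Gdf15 UMIs in 12.1% to 17.6% of all UMIs. In the phagocyte gate Gdf15 stood at 57.8 CPM (49.4 to 67.1) in the Cth+/+ control library, 70.4 CPM (62.7 to 78.8) in the Cth+/+ cystine-free library and 64.0 CPM (56.6 to 72.0) in the Cth-/- control library. It stood at 245 CPM (227 to 264) in the Cth-/- cystine-free library. The intervals of the first 3 overlap, and the fourth library is 3.83-fold (3.33 to 4.43) above the Cth-/- control library. On the log2 scale this diet ratio was 1.94 (1.73 to 2.15) in Cth-/- and 0.29 (0.01 to 0.57) in Cth+/+, a difference of 1.65 (1.32 to 1.99). On the control diet the log2 ratio of Cth-/- to Cth+/+ was 0.15 (-0.13 to 0.43), and on the cystine-free diet 1.80 (1.60 to 2.00). By its diet ratio (with 1 CPM added to both levels) in Cth-/- phagocytes, Gdf15 was the 45th highest of 7961 genes with at least 10 CPM.

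The share of phagocyte barcodes with a Gdf15 UMI was 9.37% (7.58 to 11.4), 9.47% (7.79 to 11.4) and 8.99% (7.43 to 10.8) in the first 3 libraries. It was 21.0% (18.2 to 23.96) in the Cth-/- cystine-free library. The median depth of the gate was 2602, 3302, 2927 and 2906 UMIs. T-gate barcodes, taken as the reference for RNA free in the droplets, had a Gdf15 UMI in 0.365%, 1.53%, 0.862% and 0.844% of barcodes at median depths of 2056 to 2802 UMIs. With every phagocyte barcode thinned to 1000 UMIs, which left out 26 to 59 barcodes per library, the expected shares were 4.96%, 5.54%, 5.09% and 14.1%. The order of the fourth library against the others was thus the same at equal depth.

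Positive phagocytes also held more Gdf15 each in the Cth-/- cystine-free library. The mean was 1.93, 2.95, 2.54 and 4.11 Gdf15 UMIs per positive barcode. Barcodes with at least 10 UMIs numbered 0, 5, 3 and 19. The highest single barcode held 8, 14, 17 and 42 Gdf15 UMIs. Counting no more than 5 UMIs in any barcode lowered the diet ratio in Cth-/- phagocytes to 1.53, and leaving out the 1% of barcodes with most Gdf15 UMIs gave 2.21. Positive phagocytes were not deeper than the gate, at medians of 2544, 2979, 2768 and 2533 UMIs.

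Within the phagocyte gate, barcodes high in Mrc1 (the mannose receptor) and Folr2 (a folate receptor of resident macrophages) held more Gdf15. They stood at 78.3, 114, 96.1 and 316 CPM in the 4 libraries, and 12.4%, 13.5%, 11.96% and 25.6% of them were positive. Barcodes low in both genes stood at 22.9, 23.7, 8.89 and 124 CPM. The high part was thus 3.41-, 4.82-, 10.8- and 2.55-fold above the low part, with no overlap of intervals in any library. The log2 diet ratio in the high part was 1.72 (1.503 to 1.94) in Cth-/- and 0.55 (0.24 to 0.85) in Cth+/+, and in Cth-/- Gdf15 ranked 30th of 8019 genes there.

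In the low part the log2 diet ratio was 3.80 (3.00 to 4.71) in Cth-/- and 0.05 (-0.68 to 0.80) in Cth+/+. These values rest on few barcodes, and adipocyte genes (Adipoq, Plin1, Cidec, Lep and Cfd) summed to 2847 CPM in the low part of the Cth-/- cystine-free library against 29.2 CPM in that of the Cth-/- control library. Their part in the ratio was not tested. The 128 UMIs of the Cth-/- cystine-free library lay in 22 barcodes, with 42 of them in 1 barcode, and the 14 UMIs of the Cth-/- control library lay in 8. The ratio was 2.63 with at most 5 UMIs counted per barcode and 2.25 with all gate limits doubled. On the control diet the low part of Cth-/- stood below that of Cth+/+, at a log2 ratio of -1.37 (-2.42 to -0.37), which was -0.23 with all gate limits doubled.

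**Figure D2:**
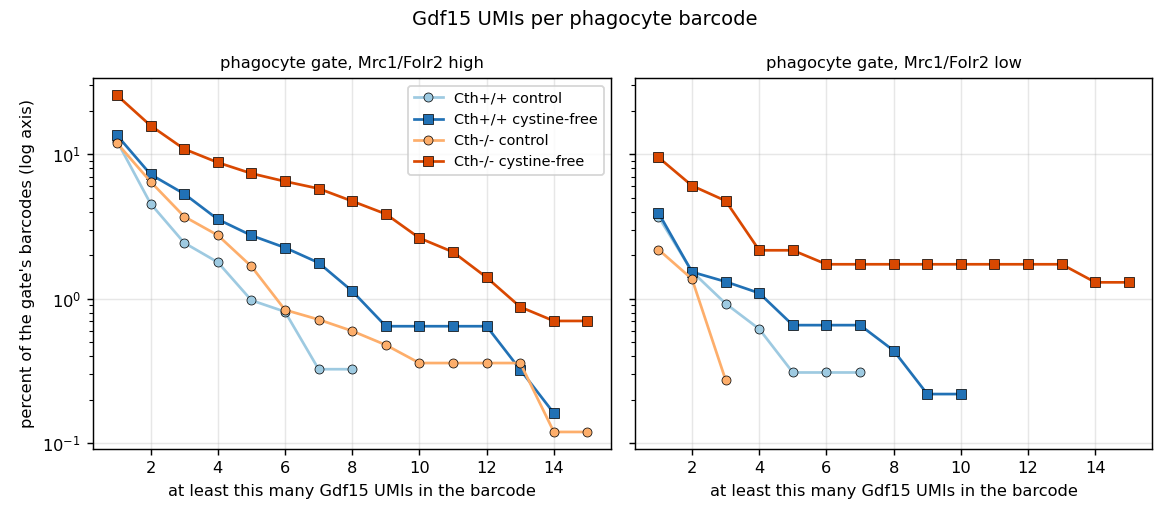
Percent of phagocyte barcodes (log axis) with at least the number of Gdf15 UMIs on the horizontal axis (1 to 15), by library, for the Mrc1/Folr2-high part (left) and the Mrc1/Folr2-low part (right). In the high part the Cth-/- cystine-free curve lies above the other 3 at every number, from 25.6% with at least 1 UMI to 2.63% with at least 10.

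Endothelial barcodes held less Gdf15 than the Mrc1/Folr2-high phagocytes in every library. Gdf15 stood at 16.3 CPM (12.8 to 20.6) in the Cth+/+ control library and 13.1 CPM (10.5 to 16.2) in the Cth+/+ cystine-free library. It stood at 27.9 CPM (20.5 to 37.1) in the Cth-/- control library and 39.4 CPM (32.9 to 46.7) in the Cth-/- cystine-free library. Both Cth-/- libraries were thus above both Cth+/+ libraries, with touching intervals between the control pair. The summed adipocyte markers in this gate were also highest in the Cth-/- libraries, at 310, 90.1, 859 and 1775 CPM with all 5 detected in each, and its summed progenitor markers were 997, 1296, 1516 and 207 CPM. The part of either in the Gdf15 levels was not tested. The log2 diet ratio was 0.50 (0.01 to 1.01) in Cth-/- and -0.32 (-0.79 to 0.16) in Cth+/+. The log2 ratio of Cth-/- to Cth+/+ was 0.77 (0.21 to 1.32) on the control diet, and 0.023 once barcodes that passed several gates were left out.

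Those left out were largely endothelial barcodes that also passed the gate on Rgs5, a regulator of G-protein signalling typical of pericytes, and Notch3, a receptor of mural cells. Endothelial barcodes with both sets of genes held 17.1, 19.5, 50.7 and 90.4 CPM of Gdf15, and endothelial barcodes without Rgs5 and Notch3 held 15.9, 7.59, 17.4 and 30.1 CPM. These sets overlapped in the Cth+/+ control library and were apart in the other 3, at log2 ratios of 1.36 (0.68 to 2.07), 1.55 (0.66 to 2.46) and 1.58 (1.03 to 2.12). The double-positive barcodes were also deeper (medians of 4089 to 5859 UMIs against 1830 to 3023). Doublets of endothelial and mural cells and their part in these values were not tested. The whole gate on Rgs5 and Notch3 stood at 17.7, 18.9, 25.1 and 63.7 CPM, with a log2 diet ratio of 1.34 (0.66 to 2.05) in Cth-/- and 0.09 (-0.48 to 0.69) in Cth+/+. Adipocyte markers in it summed to 246, 82.3, 569 and 1348 CPM, and their part was not tested.

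Progenitor barcodes, the fibroblast-like cells from which new adipocytes arise, held little Gdf15 for each cell. The levels were 3.20 CPM (2.26 to 4.39), 4.31 CPM (3.35 to 5.47), 6.83 CPM (5.62 to 8.22) and 17.9 CPM (14.5 to 21.8) in the 4 libraries. In T-gate barcodes the levels were 1.31 CPM (0.033 to 7.32), 4.48 CPM (0.925 to 13.1), 3.32 CPM (0.084 to 18.5) and 2.83 CPM (0.343 to 10.2), from 1 to 3 UMIs each. Only in the Cth-/- cystine-free library did the progenitor interval lie above that of the T gate, so in the other 3 the progenitor signal could not be told from that of the T gate at this depth. The log2 ratio of Cth-/- to Cth+/+ was 1.09 (0.55 to 1.66) on the control diet and 2.05 (1.59 to 2.52) on the cystine-free diet. The log2 diet ratio in Cth-/- was 1.39 (0.98 to 1.80), and 0.54 when each barcode was weighted equally. The make-up of the gate differed between these libraries: its summed progenitor markers stood at 12964, 16664, 14147 and 3834 CPM over the 4 libraries. Its adipocyte markers stood at 21.4, 8.56, 42.1 and 288 CPM, with a UMI in 8.97% of the barcodes of the Cth-/- control library and 57.3% of those of the Cth-/- cystine-free library. Their part in the Gdf15 ratios was not tested.

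Progenitor barcodes that carried phagocyte genes added to this signal. Without barcodes that held any UMI of Csf1r, Cd68 or Lyz2, the progenitor levels were 2.43, 3.72, 5.20 and 12.9 CPM, and the diet ratio in Cth-/- was 1.31. The epithelial gate held 14, 3, 5 and 4 Gdf15 UMIs (4.36, 1.73, 1.67 and 2.16 CPM). Barcodes with at least 5 UMIs of Adipoq, an adipocyte hormone, numbered 0, 1, 4 and 62, and the 62 of the Cth-/- cystine-free library held 2 Gdf15 UMIs (1.35 CPM). Barcodes in no gate stood at 11.1, 15.9, 20.1 and 23.7 CPM. Of their positive barcodes, 31.6%, 67.9%, 62.5% and 70.4% held a UMI of Csf1r, Cd68 or Lyz2, against 24.3% to 37.8% of all barcodes in no gate.

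**Figure D3:**
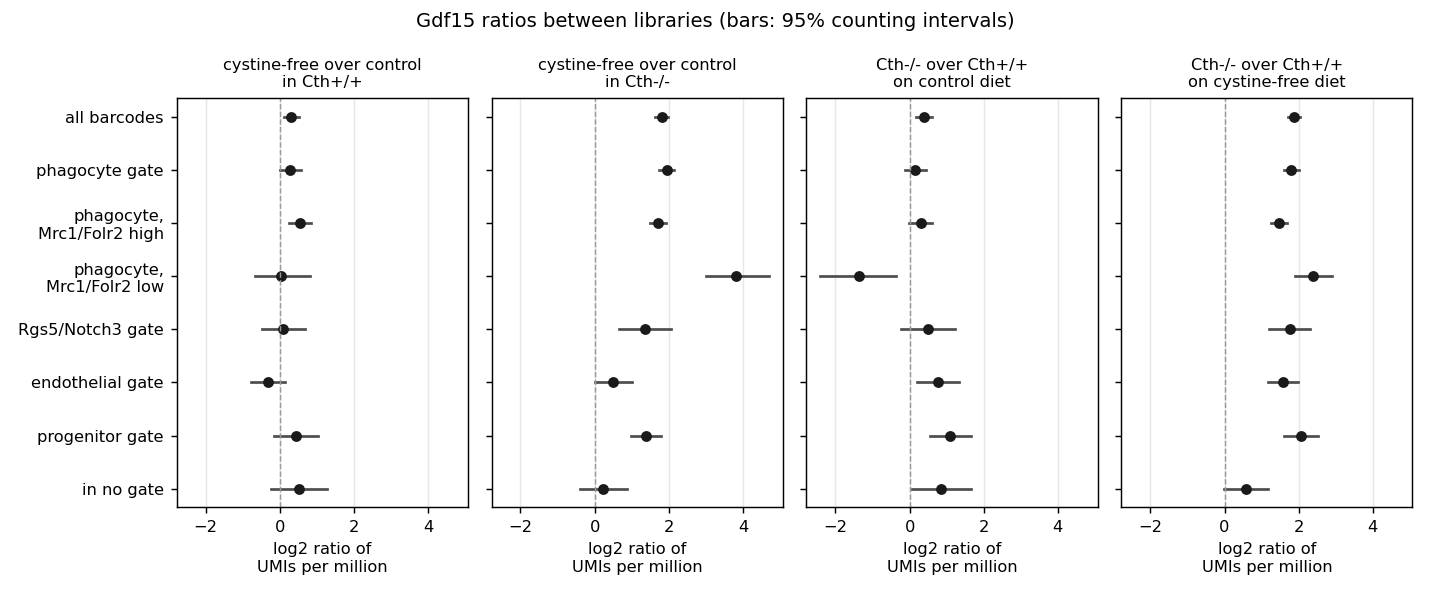
Log2 ratios of Gdf15 CPM between libraries for the 4 comparisons (panels) and 8 sets of barcodes (rows), with 95% counting intervals and a dashed line at 0. In Cth-/- the diet ratio is 1.94 in the phagocyte gate and 0.50 in the endothelial gate, and in Cth+/+ all points lie between -0.32 and 0.55.

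The order of the gates was alike in the 4 libraries at its top. The Mrc1/Folr2-high phagocytes were first in each, and their interval overlapped that of no other gate. Behind them the Mrc1/Folr2-low phagocytes, the gate on Rgs5 and Notch3, the endothelial gate and the barcodes in no gate overlapped with their neighbours in the first 3 libraries. In the Cth-/- cystine-free library the first 4 (Mrc1/Folr2-high, Mrc1/Folr2-low, Rgs5/Notch3 and endothelial, from 316 to 39.4 CPM) did not overlap. Progenitor, epithelial and T barcodes filled the last 3 places in every library.

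Genes that accompany Gdf15 were sought among phagocytes by comparing Gdf15-positive with Gdf15-negative barcodes of the same library and the same of 10 classes of depth. Of 711 genes with at least 50 UMIs in the positive barcodes of every library, 19 (2.67%) were at least 1.5-fold higher in all 4 libraries and 12 at least 1.5-fold lower. That minimum favours genes high in positive barcodes, and with the minimum set on the mean of observed and expected UMIs the counts were 15 and 20 of 716. Several of the highest are genes of resident macrophages. Ccl8, a chemokine, was 1.98-, 2.88-, 1.83- and 3.43-fold higher. Ms4a7, a membrane protein of macrophages, was 2.07-, 2.16-, 2.07- and 1.80-fold higher. Folr2, which is part of the split above, was 1.61- to 1.74-fold higher, and Maf, a transcription factor of tissue macrophages, 1.53- to 1.90-fold.

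The lists of known regulators were read in the same way, at 1.5-fold within each library. Of all genes there, 17.4% to 21.4% were higher and 8.79% to 10.9% lower. Atf4 and Ddit3 genes were higher in 2 of 12, 4 of 14, 3 of 14 and 2 of 17, and lower in 0. Genes of the p53 pathway were higher in 0 of 11, 0 of 12, 1 of 12 and 3 of 15, and lower in 1, 0, 1 and 2. In both lists the shares higher lie near or below that of all genes, except for the 4 of 14. The median log2 ratios of the Atf4 and Ddit3 genes were 0.31, 0.49, 0.35 and 0.29. Those of the p53 genes were 0.24, 0.04, 0.08 and 0.06, and those of all genes 0.10, 0.15, 0.14 and 0.14. The Atf4 and Ddit3 medians were thus above that of all genes in every library. Nrf2 targets were higher in 2 of 10, 2 of 12, 2 of 11 and 5 of 15, and lower in 1, 1, 2 and 1. Immediate early genes were higher in 6 of 18, 8 of 19, 7 of 19 and 3 of 19, and lower in 0. Among single genes, Sqstm1, the autophagy receptor p62, was 1.72-, 2.12-, 1.59- and 1.81-fold higher in Gdf15-positive phagocytes, and Atf3, a stress-induced transcription factor, 1.58-, 1.60-, 1.60- and 1.54-fold. Ctsb, a lysosomal protease, was 1.56- to 1.89-fold higher and Apoe, a lipid carrier, 1.53- to 2.07-fold. Ddit3, which encodes CHOP, was 2.32-fold (1.77 to 2.99), 2.21-fold (1.64 to 2.91), 1.46-fold (1.07 to 1.94) and 1.26-fold (1.01 to 1.56) higher. Hmox1, heme oxygenase, was 1.90-, 2.08-, 1.36- and 1.74-fold higher, whereas Cdkn1a, a p53 target, was at 1.23-, 1.29-, 0.801- and 1.04-fold. Among the Mrc1/Folr2-high phagocytes alone, 0 of 613 genes reached 1.5-fold in all 4 libraries. The highest there were Ccl8 (up to 2.68-fold) and Sqstm1 (1.38- to 1.74-fold). The genes and barcodes compared differ from those of the whole gate. The part of the Mrc1/Folr2 split in the whole gate's difference was not tested.

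In the progenitor gate 8 of 517 genes (1.55%) were at least 1.5-fold higher in positive barcodes of the 3 libraries with at least 30 of them (all but the Cth+/+ control library). They were Pf4, Hmox1, Lyz2, C1qa, Retnla, Gas6, Apoe and Cxcl2, and Pf4, Lyz2, C1qa and Retnla among them are genes of macrophages. Pf4 was 8.30-, 5.96- and 4.37-fold higher and C1qa 9.22-, 5.21- and 3.34-fold, in those 3 libraries. With barcodes of several gates left out, 419 genes still had at least 50 UMIs in the positive barcodes of each library. Of these, 0 were at least 1.5-fold higher in all 3 libraries. Genes that fell below the minimum were no longer compared, so this count does not give their folds. Before that step Pf4 had 57, 98 and 56 UMIs in the positive barcodes and C1qa 51, 85 and 50. With all progenitor barcodes kept, p53 genes were at least 1.5-fold higher in 1 of 7, 7 of 15 and 8 of 14. They were lower in 0, 0 and 2. Atf4 and Ddit3 genes were higher in 1 of 16, 3 of 17 and 9 of 20, and lower in 1 each. Of all genes, 11.95%, 12.2% and 14.7% were higher. The median log2 ratios of the p53 genes were 0.24, 0.57 and 0.82, against 0.04, 0.04 and 0.10 for all genes. The part of phagocyte RNA in these values was not tested. In the endothelial gate 0 of 391 genes (0%) reached 1.5-fold in all 4 libraries. The highest was Nr4a1, an immediate early nuclear receptor, at 1.55-, 1.28-, 1.36- and 1.38-fold.

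**Figure D4:**
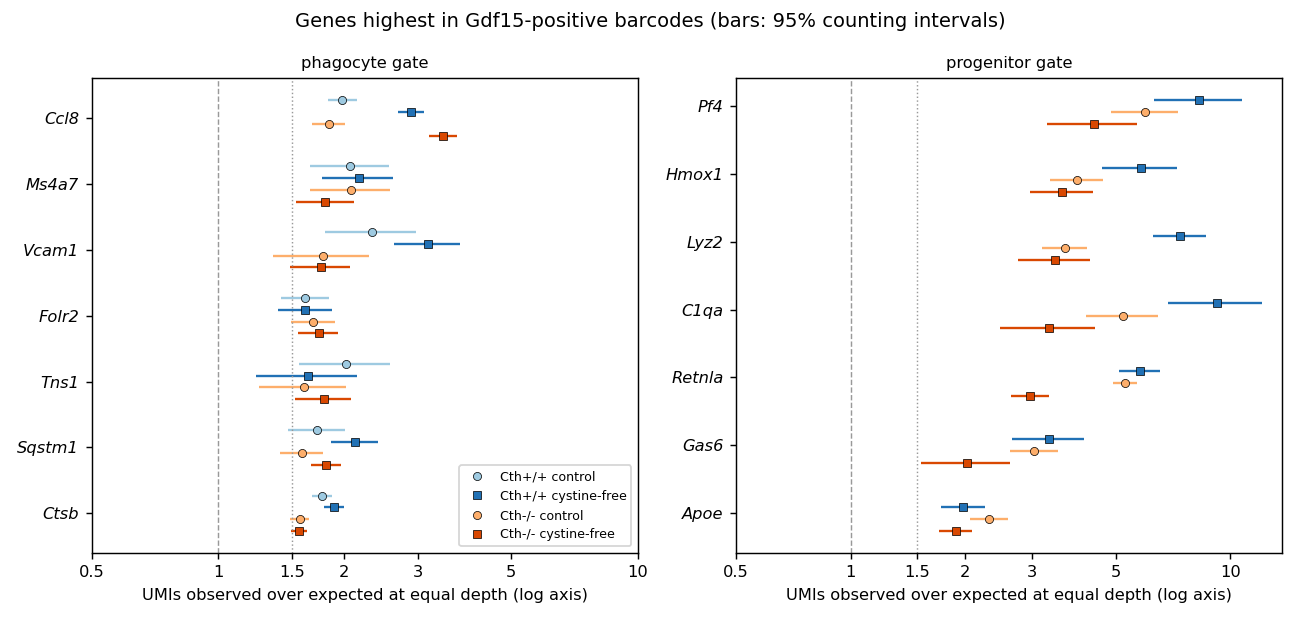
The 7 genes highest in Gdf15-positive barcodes of the phagocyte gate (left) and the progenitor gate (right), as UMIs observed over UMIs expected from Gdf15-negative barcodes of equal depth (log axis), with 95% counting intervals and lines at 1 and 1.5. In phagocytes Ccl8 reaches 3.43-fold in the Cth-/- cystine-free library, and in the progenitor gate the top genes are Pf4, Hmox1, Lyz2 and C1qa. Genes needed at least 50 UMIs in the positive barcodes, which favours genes high in them.

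Genes whose level followed that of Gdf15 over 32 profiles (8 sets of barcodes in 4 libraries) were ranked by Pearson's r of log2(CPM + 1) among 10637 genes. The 10 highest were Zfand5 (0.88), Pltp (0.88), Picalm (0.86), Wsb1 (0.85), P3h2 (0.85), Mcl1 (0.85), Rgl1 (0.84), Nampt (0.84), Arhgap17 (0.84) and Hrh1 (0.83). The profiles of 1 library share its depth and free RNA, so these values are a description. They mostly follow the high level in phagocytes: Zfand5 stood at 414, 461, 423 and 460 CPM in Mrc1/Folr2-high phagocytes, with no step in the Cth-/- cystine-free library. Pltp, a phospholipid transfer protein, stood at 1001, 764, 889 and 1324 CPM there.

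After each set's mean over the libraries was subtracted, so that only differences between libraries counted, none of these 10 was among the 10 highest. Of those 10, 4 encode heat shock chaperones or their partners: Hsp90aa1 (r of 0.80), Hspa8 (0.76), Dnaja1 (0.76) and Dnajb1 (0.75). The highest of the 10 was Synrg (0.81), and Gadd45a, a member of the p53 list, was also among them (0.78). In Mrc1/Folr2-high phagocytes Hsp90aa1 stood at 504, 525, 571 and 1098 CPM and Dnajb1 at 208, 164, 194 and 485 CPM. Both are, like Gdf15, highest in the Cth-/- cystine-free library, and close together in the other 3. The ranking itself selects genes with this pattern, so their likeness to Gdf15 is no separate result.

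The known regulators of Gdf15 and other stress programmes were then read in the same gates, with a gene counted as measured at 10 CPM in either library and called at 1.5-fold. In Cth-/- phagocytes on the cystine-free against the control diet, 5.73% of 7961 genes passed that fold upward and 8.29% downward. Of the heat shock genes, which encode chaperones, 7 of 10 were higher and 0 lower, with a median log2 ratio of 1.15 against -0.04 for all genes. Hspa1a stood at 1145 against 297 CPM (log2 ratio 1.94) and Hspa1b, its near-identical copy, at 638 against 145 CPM (2.13). Reads of these 2 copies may be split between them. Hsph1 stood at 69.7 against 21.5 CPM.

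The integrated stress response was read next in these phagocytes. Of 26 measured genes among targets and regulators of Atf4 and Ddit3, 1 was higher and 2 were lower, with a median log2 ratio of 0.02. Atf4 itself stood at 403 against 365 CPM (log2 ratio 0.14) and Ddit3 at 115 against 86.0 CPM (0.42). Atf3 stood at 1104 against 840 CPM (0.39). Nupr1, a stress-induced chromatin protein and the 1 gene past 1.5-fold, stood at 185 against 122 CPM. Psat1, an enzyme of serine synthesis, stood at 7.11 against 14.2 CPM, and Slc7a1, a transporter of cationic amino acids, at 15.3 against 23.8 CPM. Trib3, Asns and Chac1, the classic Atf4 targets, were below 10 CPM in all phagocyte libraries, with 0 to 4, 3 to 15 and 0 to 3 UMIs.

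In the p53 pathway 1 of 22 measured genes was higher and 1 lower in the same comparison. Cdkn1a, the cell cycle inhibitor p21, stood at 427 against 419 CPM and Mdm2, the ubiquitin ligase of p53, at 78.2 against 85.3 CPM. Of 15 Nrf2 targets, 2 were higher (Me1 at 83.9 against 11.7 CPM and Osgin1 at 13.2 against 6.54 CPM) and 0 lower. Of 19 immediate early genes, 2 were higher (Jun, 1058 against 674 CPM, and Dusp1, 3219 against 2145 CPM) and 2 lower (Egr2 and Egr3). Of 11 genes of mitochondrial stress, 1 was higher, Chchd10 at 116 against 10.0 CPM, and 0 were lower.

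Adipocyte genes moved with the last library in the same gate. The sum of Adipoq, Plin1, Cidec, Lep and Cfd in phagocytes was 18.0, 9.59, 46.0 and 1314 CPM, and in T-gate barcodes 30.2, 5.98, 89.6 and 330 CPM. Lep was at 0 in the phagocytes of the Cth-/- cystine-free library, and Plin1 at 0 in both Cth+/+ libraries. Me1 and Chchd10 were at 0.278- and 0.445-fold in Gdf15-positive phagocytes of that library. The part of adipocyte RNA in the ratios of Me1 and Chchd10 was not tested. The 62 barcodes with at least 5 Adipoq UMIs in that library held Gdf15 at 1.35 CPM.

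**Figure D5:**
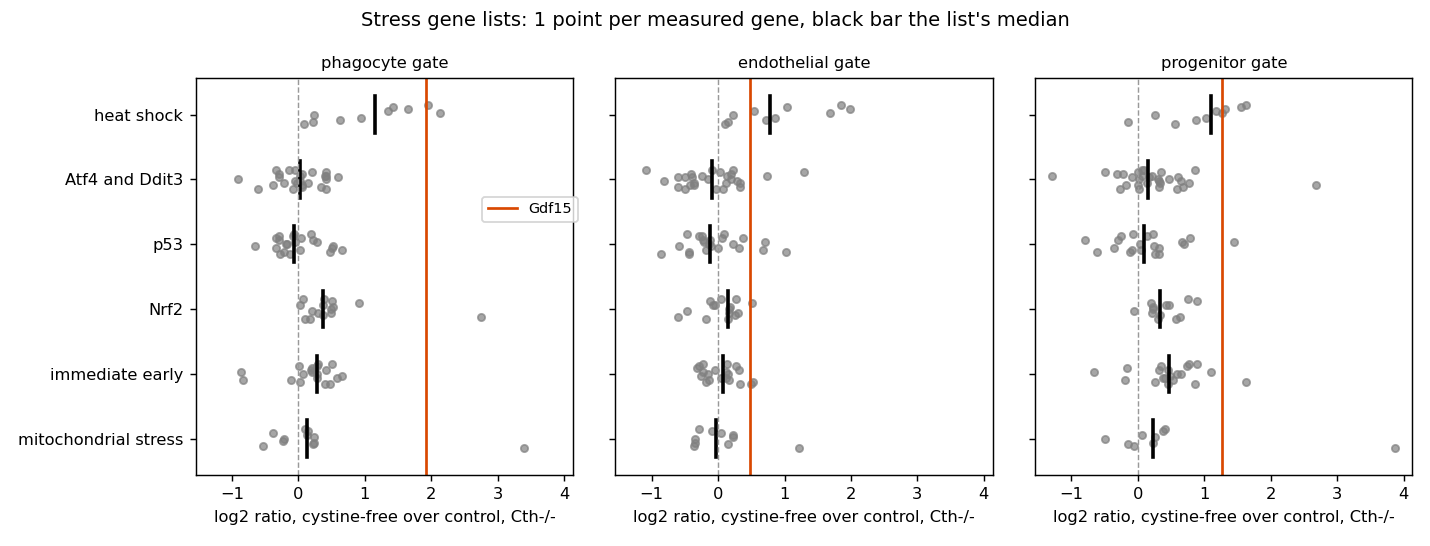
Log2 ratio (pseudocount of 1 CPM) of the cystine-free to the control library of Cth-/- for each measured gene of 6 lists, in the phagocyte, endothelial and progenitor gates. Black bars mark list medians and the orange line marks Gdf15. In phagocytes the heat shock list has its median at 1.15, and the medians of the other 5 lists lie between -0.07 and 0.38.

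The same lists were read in the other gates and comparisons. In Cth-/- progenitor barcodes, where 8.31% of genes were higher and 9.95% lower, heat shock genes were higher in 7 of 10 and lower in 0. Atf4 and Ddit3 genes were higher in 7 of 30 and lower in 1 there. Atf4 stood at 380 against 250 CPM, Atf3 at 1216 against 672 CPM, Asns at 13.7 against 7.62 CPM and Trib3 at 18.8 against 2.07 CPM, and Ddit3 at 84.3 against 98.6 CPM. Immediate early genes were higher in 8 and lower in 1 of 20, Nrf2 targets higher in 3 and lower in 0 of 13, and p53 genes higher in 4 and lower in 2 of 20 (median log2 ratio 0.09). Among the p53 genes, Cdkn1a stood at 524 against 191 CPM. In Cth-/- endothelial barcodes, where 5.32% were higher and 10.1% lower, heat shock genes were higher in 6 of 10 and Atf4 and Ddit3 genes higher in 2 and lower in 4 of 27. Genes of the p53 pathway were higher in 3 and lower in 2 of 22 there, Nrf2 targets higher in 0 and lower in 1 of 15, and no immediate early gene of 20 passed in either direction.

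In phagocytes of the 2 cystine-free libraries, Cth-/- against Cth+/+, 10.3% of genes were higher and 7.27% lower. Heat shock genes were higher in 7 of 10, Nrf2 targets in 6 of 15, immediate early genes in 6 of 19 and p53 genes in 4 of 20, with 0 lower in each of these lists. Atf4 and Ddit3 genes were higher in 3 and lower in 2 of 25, and genes of mitochondrial stress higher in 2 and lower in 0 of 10. In the Cth+/+ diet comparison, with 2.78% higher and 6.56% lower, 0 of 10 heat shock genes passed 1.5-fold in either direction, and Atf4 and Ddit3 genes were higher in 1 and lower in 2 of 25. No gene of the other 4 stress lists was higher there. On the control diet, Cth-/- against Cth+/+, with 3% higher and 2.33% lower, neither of these lists had a member past 1.5-fold, and Nrf2 targets, immediate early genes and genes of mitochondrial stress had 1 higher each. These comparisons share libraries in pairs.

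Gdf15-positive phagocytes were also read for heat shock genes within a library. At 1.5-fold, 3 of 9, 5 of 10, 6 of 10 and 0 of 10 were higher in positive barcodes, and 0, 1, 0 and 1 lower. Of all genes, 17.4%, 21.4%, 18.2% and 18.1% were higher and 10.9%, 9.87%, 8.86% and 8.79% lower. In the Cth-/- cystine-free library, where heat shock genes and Gdf15 were both highest, Hspa1b was at 1.03-fold in the positive barcodes.

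The receptor of GDF15 was not detected. Gfral had 0 UMIs in all 4 libraries, where 3 UMIs would be 0.097 to 0.188 CPM. Ret had 34, 119, 21 and 13 UMIs over all barcodes and 0 to 2 in phagocytes. Furin, a protease that matures GDF15, was present in phagocytes at 190, 172, 182 and 190 CPM, with no step in the Cth-/- cystine-free library. Of the other TGF-beta superfamily ligands, 4 of 25 were measured in the Cth-/- phagocyte comparison, with 0 higher and 2 lower (median log2 ratio -0.38). Those lower were Gdf3 at 7.11 against 13.1 CPM and Gdf10 at 2.49 against 10.5 CPM, from 20 against 56 and 7 against 45 UMIs. Tgfb1 stood at 198 against 193 CPM and Bmp2, a bone morphogenetic protein, at 72.6 against 62.4 CPM. Of other secreted stress signals in these phagocytes, Angptl4, an inhibitor of lipoprotein lipase, stood at 80.7 against 40.2 CPM, Il6 at 129 against 110 CPM and the chemokine Ccl2 at 1493 against 2416 CPM.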

How the data were processed

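Raw UMI counts were taken as deposited. Cell Ranger produced them for the called cells (3.0.0 per the file headers; mm10 per the submitters' processing notes). No barcode filter or doublet caller was applied in the values reported. UMIs were summed per library and gate (CPM, UMIs per 1000000 UMIs) in Python 3.11.15 with numpy 2.4.6 and scipy 1.17.1. Intervals (95%) are exact Poisson for counts, Clopper-Pearson for shares and exact conditional binomial for ratios, and cover counting error only. Ratios of Gdf15 have no pseudocount; those of list members have 1 CPM. Barcodes were compared within 10 classes of depth, and thinned shares were computed exactly. Scripts were tested on simulated data. Samples of 1 library per group allowed no test. The gene, its gates, the gene lists and the rule for named genes were chosen with earlier results of these data known. The rule took the 10 genes most like Gdf15, the 15 highest in positive barcodes per gate, and list members by fold; not all are printed, and 1 is not reported here. Alternatives changed the barcode filter, gates, weighting, caps, pseudocount, minimum and fold. The labels name the diet cysteine-free or cystine-free, and the latter was used.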

Additional observations from a re-analysis of the deposited data

Results flagged for a closer look

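The diet ratio of Gdf15 in the endothelial gate had opposite signs in the genotypes. It was 0.50 on the log2 scale in Cth-/- and -0.32 in Cth+/+, a difference of 0.81 that was not tested, since each group had 1 library. The counting interval of the Cth+/+ ratio (-0.79 to 0.16) includes 0.

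In the Mrc1/Folr2-low phagocytes, Cth-/- stood above Cth+/+ on the cystine-free diet (log2 ratio 2.39) and below it on the control diet (-1.37), a difference of 3.75 that was not tested. The 4 libraries held 14 to 128 Gdf15 UMIs in this set of barcodes.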

How the results depend on the processing

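The levels depended more on the processing than the ratios. Of 180 levels of Gdf15 in CPM recomputed under the alternatives, 113 stayed within the counting interval of the reported value and 67 moved outside it. Thinning, which lowers the depth of every barcode, moved 23 of 24 shares of positive barcodes outside their intervals. Of 259 log2 ratios of Gdf15 recomputed under the alternatives, 227 stayed within the counting interval of the reported value, 32 moved outside it and 0 changed the sign of a ratio whose interval excludes 0. With every barcode weighted equally, the ratios over all barcodes were 0.56 and 1.60 for the diet in Cth+/+ and Cth-/-, and 0.65 and 1.70 for the genotype on the control and cystine-free diets. In progenitors, equal weights gave 0.54 for the diet in Cth-/- and 1.82 for the genotype on the control diet. With at most 5 UMIs per barcode, the diet ratio in Cth-/- was 1.53 over all barcodes and 1.53 in phagocytes, and the genotype ratio on the cystine-free diet 1.63 and 1.502. Without the top 1% of barcodes these were 2.16, 2.21, 2.41 and 2.03, and 3.68 in progenitors for the last comparison. In Cth+/+ control progenitors this removed every Gdf15 UMI, so 2 ratios have no value. Without barcodes of several gates, the endothelial ratios were -1.05 for the diet in Cth+/+ and 0.023 for the genotype on the control diet, and 3 ratios of the Rgs5/Notch3 gate have no value. Leaving out each gate's highest barcode or, in 3 gates, barcodes with a phagocyte UMI, both chosen after seeing the data, moved no ratio outside its interval. The causes of these shifts were not tested.

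Genes at least 1.5-fold higher in Gdf15-positive phagocytes numbered 56 without matching for depth. In Mrc1/Folr2-high phagocytes they numbered 3 with at least 2 Gdf15 UMIs (3 libraries). Progenitors had 0 of the 419 genes still compared without barcodes of several gates, and 4 with the minimum on mean UMIs (chosen after seeing the data). Endothelial barcodes had 7 in the 1 library left. Atf4 and Ddit3 genes higher in Cth-/- phagocytes on the cystine-free diet numbered 3 with no minimum, 0 with a pseudocount of 5 CPM and 0 at 2-fold. Those of the p53 pathway numbered 3 with no minimum and 0 with a minimum of 30 CPM, a pseudocount of 5 CPM or 2-fold. Nrf2 targets numbered 1 at 30 CPM and 1 at 2-fold, and immediate early genes 1 with the larger pseudocount and 0 at 2-fold. Heat shock counts stayed within 1.5-fold of 7. Of the 10 genes most like Gdf15, Spearman's rho kept 4 and centring within gates 0. No paired analysis was possible because each group had 1 library.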
